A study of Mus musculus with 9 samples.

Results

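The genes described here are the interferon response genes of MyC-CaP mouse prostate cancer cells and the receptors, transcription factors and RNA sensors that regulate them. They were chosen by name, with earlier results of these data known. Of 43 gene symbols listed, the 40 with a row in the count table, of 15384 genes in all, were used. Mx1, Mx2 and Ifih1 were not analysed here. MyC-CaP is 1 cell line, derived from a prostate tumor of a mouse that carries a human MYC transgene under the probasin promoter, and ASPN (asporin) is a protein secreted by fibroblasts of the tumor stroma. Cells were first kept without serum and calcium, and RNA was collected at 0, 12 and 24 hours with recombinant mouse ASPN at 100 ng/mL, with 3 libraries per time. The sample labels name ASPN as the treatment of the libraries of 0 hours too, and these served as time 0. Libraries of cells kept for 12 or 24 hours without ASPN were not analysed here, so the effect of ASPN and that of time since the starvation cannot be told apart in any comparison. The labels call the libraries of a time biological replicates and say no more of how they were obtained, so the p-values measure the spread between these libraries, which may be partly technical.

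Interferons are cytokines that put cells into an antiviral state. Type I interferons bind the IFNAR1 and IFNAR2 receptor chains and act through a transcription factor complex that contains STAT2 and IRF9 and binds the interferon-stimulated response element (ISRE) of target promoters. Interferon-gamma binds IFNGR1 and IFNGR2 and acts through the gamma-activated site (GAS) of target promoters and induces IRF1. Several interferon target promoters, that of Irf1 among them, also carry binding sites for NF-kB, a transcription factor of inflammatory signaling.

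The counts of a library totaled 41881191 to 52993821 (median 44779129), at which 3 counts of a gene correspond to 0.0566 to 0.0716 counts for every 1000000 counts of the library (CPM). Libraries of the same time differed by more than sampling noise in every pair (chi-square over degrees of freedom of 3.48 to 18.2). Among markers of prostate luminal epithelium, Krt8, Krt19 and Hoxb13 were over 1 CPM, while Epcam and Tmprss2 each had 1 count over the 9 libraries. Leukocytes, which express several interferon response genes at high level, were represented by 6 markers in the table, whose summed level was 0.291 to 0.815 CPM at time 0, 0.328 to 0.646 CPM at 12 hours and 0.611 to 0.781 CPM at 24 hours, with Itgam, Cd3e and Itgax at 1 to 2 counts over all libraries. The summed level of 4 fibroblast markers was 13.0 to 14.1 CPM at time 0, 12.2 to 12.5 CPM at 12 hours and 9.09 to 10.3 CPM at 24 hours, nearly all of it Pdgfra, and its part in the results was not tested. The 2 endothelial markers were at or below 0.125 CPM in every library. In bulk RNA a change in the share of cells that express a gene and a change in the level per cell cannot be told apart.

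Promoters of some of the genes are shown first, and whether their sequences bear on the changes was not tested. They include the 4 genes with the highest fold changes at 12 hours (Irf1, Ifngr2, Gbp2 and Gbp3). The others are Isg15 and Trim21, which moved in opposite directions at 24 hours, and Ifit1, which also held ISRE cores and was not called. Each line gives 200 bases in the direction of the gene, 170 before the RefSeq transcript start and 30 from it on, and capitals mark matches to 3 motif cores.
Irf1: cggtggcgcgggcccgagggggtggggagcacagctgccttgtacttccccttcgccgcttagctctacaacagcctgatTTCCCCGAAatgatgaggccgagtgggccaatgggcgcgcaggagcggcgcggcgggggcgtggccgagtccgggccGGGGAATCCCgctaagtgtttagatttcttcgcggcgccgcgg
Ifngr2: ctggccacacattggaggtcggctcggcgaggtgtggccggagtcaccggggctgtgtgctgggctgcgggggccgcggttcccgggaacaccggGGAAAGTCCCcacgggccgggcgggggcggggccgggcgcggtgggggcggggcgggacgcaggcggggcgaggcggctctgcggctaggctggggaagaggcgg
Gbp2: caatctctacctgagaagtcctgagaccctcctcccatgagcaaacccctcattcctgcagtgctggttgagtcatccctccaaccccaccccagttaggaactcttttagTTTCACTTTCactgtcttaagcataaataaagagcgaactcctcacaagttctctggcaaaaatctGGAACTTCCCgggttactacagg
Gbp3: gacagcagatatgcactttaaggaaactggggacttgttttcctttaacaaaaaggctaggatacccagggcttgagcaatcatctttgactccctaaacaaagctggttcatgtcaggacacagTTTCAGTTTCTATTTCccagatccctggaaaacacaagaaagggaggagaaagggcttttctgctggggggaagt
Isg15: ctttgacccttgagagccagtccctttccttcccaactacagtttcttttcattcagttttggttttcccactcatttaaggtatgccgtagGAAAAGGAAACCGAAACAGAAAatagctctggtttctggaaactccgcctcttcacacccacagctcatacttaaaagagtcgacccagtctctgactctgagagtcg
Trim21: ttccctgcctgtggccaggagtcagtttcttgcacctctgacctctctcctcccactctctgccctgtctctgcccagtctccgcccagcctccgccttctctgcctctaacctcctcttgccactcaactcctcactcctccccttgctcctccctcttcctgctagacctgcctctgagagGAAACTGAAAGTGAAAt
Ifit1: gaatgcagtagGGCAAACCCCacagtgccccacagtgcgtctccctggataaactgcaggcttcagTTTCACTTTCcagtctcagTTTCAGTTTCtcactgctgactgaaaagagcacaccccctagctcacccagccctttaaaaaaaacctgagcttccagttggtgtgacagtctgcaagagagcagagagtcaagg
The windows come from RefSeq on GRCm38.p6. They are chr11:53769844-53770043 (plus strand) for Irf1, chr16:91546889-91547088 (plus strand) for Ifngr2, chr3:142620493-142620692 (plus strand) for Gbp2, chr3:142559874-142560073 (plus strand) for Gbp3, chr4:156200789-156200988 (minus strand) for Isg15, chr7:102565453-102565652 (minus strand) for Trim21 and chr19:34640719-34640918 (plus strand) for Ifit1. The motif cores searched on both strands were GAAANNGAAA for the ISRE, TTCNNNGAA for the GAS and GGGNNNTNCC for NF-kB, where N is any base. Positions below count from the transcript start, which is 0.

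The Irf1 promoter held a GAS core, TTCCCCGAA, at -90 to -82 and an NF-kB core, GGGGAATCCC, at -13 to -4, and no ISRE core. In Ifngr2 the match was an NF-kB core alone, GGAAAGTCCC on the strand shown, at -75 to -66. Gbp2 held an ISRE core at -59 to -50 and an NF-kB core that began 7 bases after the start. Gbp3 held 2 ISRE cores that overlapped, at -45 to -36 and -39 to -30. Isg15 held 3 overlapping ISRE cores between -78 and -57, Ifit1 held 2 separate ISRE cores at -104 to -95 and -85 to -76 and an NF-kB core at -159 to -150, and Trim21 held 2 overlapping ISRE cores at 13 to 28 bases after its start.

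Of the 40 genes, 34 had a RefSeq promoter of 300 bases. Usp18, Dhx58, Parp9, Parp14, Gbp4 and Rtp4 had none in the table used. The ISRE core was found in 15 of these 34 genes (44.1%), against 3.4% of all 32851 mouse promoters and 3.8% of the 12003 genes of the count table with a promoter. The GAS core was found in 13 of 34 (38.2%), against 8.3% of all promoters, and the NF-kB core in 13 of 34 (38.2%), against 17.4% of all promoters and 23.8% of the genes of the count table. The list was made of known interferon response genes, so the share with an ISRE core is a description of the list, and a match is not evidence of binding. In all, 28 of the 34 genes held at least 1 match.

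**Figure D1:**
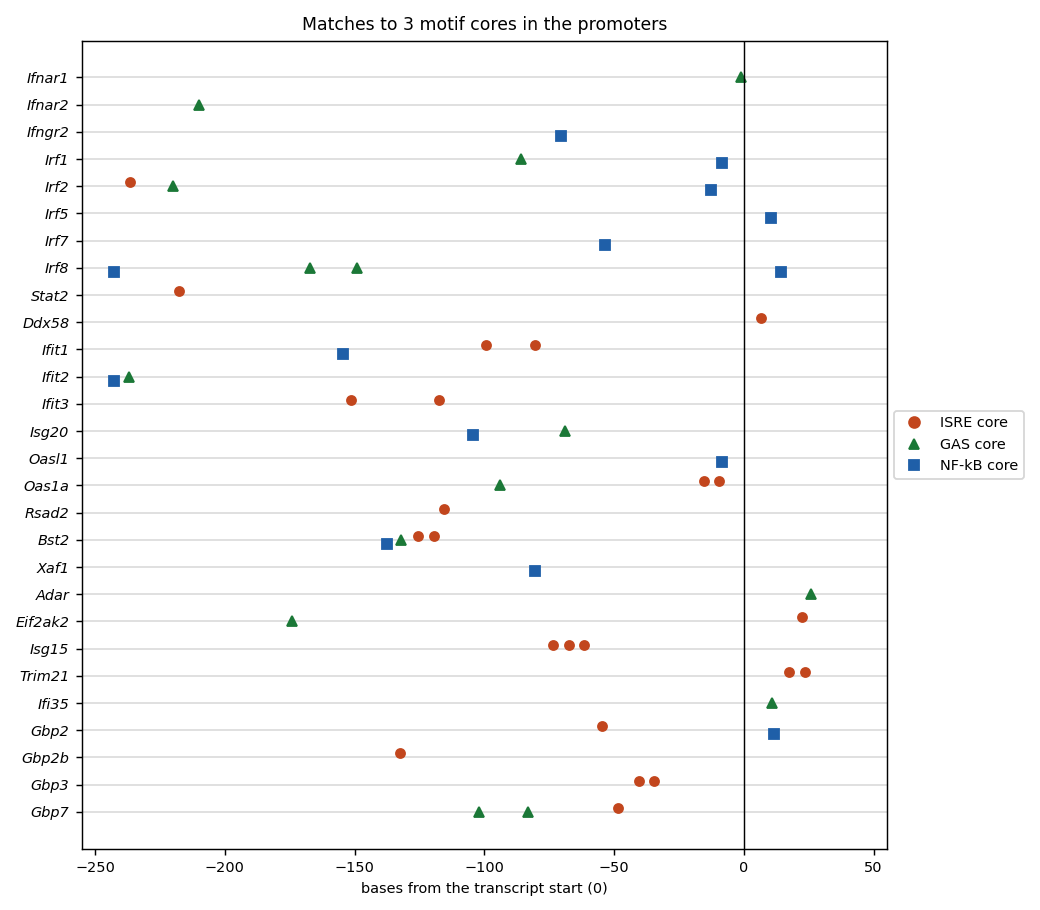
Matches to the ISRE (red circles), GAS (green triangles) and NF-kB (blue squares) cores in the promoters of the 28 genes with a match, with the x axis in bases from the transcript start. The ISRE cores of Gbp3, Isg15, Oas1a, Bst2 and Trim21 come in overlapping groups, and in Bst2 the matches to all 3 motifs overlap between -142 and -115.

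At time 0 the genes spanned a wide range of levels. The mean was at least 10 CPM for 19 of the 40 genes and under 1 CPM for 11. Per kilobase of transcript, the highest mean levels at time 0 were those of Isg20, an exonuclease that degrades viral RNA (184 CPM per kb), Bst2, which tethers budding virus particles to the cell surface (67.1 CPM per kb), and Irf1 (24.2 CPM per kb). At the low end were the radical-SAM enzyme gene Rsad2 (viperin) at 0.0451 CPM per kb, Irf5 at 0.0117 CPM per kb and Gbp4 at 0.00153 CPM per kb, while Gbp2b had no count at time 0. In the order of levels per kilobase, Gbp2 went from rank 24 at time 0 to 22 at 12 hours and 13 at 24 hours, and Gbp3 from 32 to 30 and 23. The interferon genes themselves were almost without counts: of 12 listed ligands 3 had a row, and Ifnb1, Ifnk and Ifnz had 1, 5 and 6 counts over the 9 libraries.

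**Figure D2:**
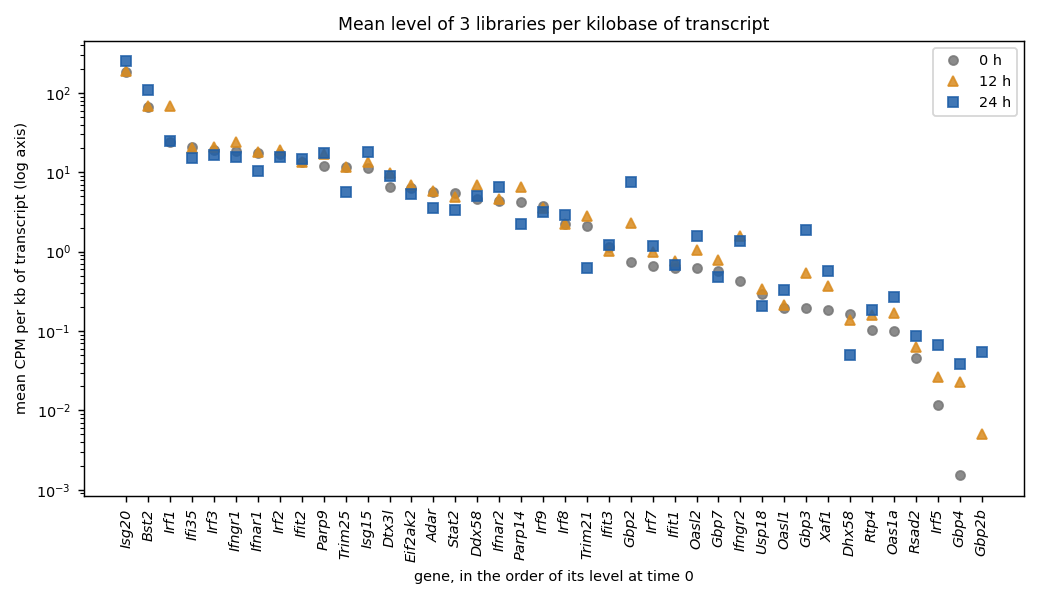
Mean level of 3 libraries in CPM per kilobase of transcript (log axis) of the 40 genes at 0 (circles), 12 (triangles) and 24 hours (squares), in the order of time 0. Irf1 stands out at 12 hours (68.9 CPM per kb), Gbp2 and Gbp3 climb at 24 hours (7.55 and 1.87 CPM per kb), and Gbp2b has no point at time 0 because it was at 0.

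For the comparisons, a gene was called when the Benjamini-Hochberg adjusted p of edgeR's quasi-likelihood test over all tested genes was 0.05 or less and the fold change was at least 1.5, and every adjusted p below comes from this test unless DESeq2 or limma-voom is named. At 12 hours 37 of the 40 genes passed the filter on low counts (not Irf5, Gbp2b and Gbp4), and 8 rose and 0 fell, which is 21.6% of those tested. By edgeR 1 gene, Stat2, was lower at an unadjusted p under 0.05. It was at -0.19 ± 0.06 on the log2 scale (adjusted p = 0.047), under the fold threshold. DESeq2 and limma-voom also called 0 lower. Among all 11410 tested genes 1.60% were called, 1.5% higher and 0.0964% lower. Because the list was chosen with earlier results of these data known, these shares are descriptive, and their difference was not tested. The 8 genes were Irf1, Ifngr2, Gbp2, Gbp3, Xaf1, Oasl2, Parp14 and Ddx58. The median log2 fold change of the 37 genes was 0.26, against 0.00 over all genes, and 31 were above 0. By the adjusted p alone 15 of the 37 passed, 14 of them higher, against 10.3% of all genes.

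At 24 hours 36 genes were tested (Rsad2 also missed the filter), and 17 were called (47.2%), 10 higher and 7 lower. Of all 11444 tested genes 28.8% were called, 12.0% higher and 16.8% lower. Gbp2, Gbp3, Ifngr2, Xaf1, Oas1a, Oasl2, Irf7, Isg15, Bst2 and Ifnar2 were higher, and Trim21, Dhx58, Trim25, Parp14, Stat2, Ifnar1 and Adar were lower. The median log2 fold change of these genes was 0.12 and that of all genes -0.02. With scaling by total counts the split was 7 higher and 8 lower, that of all genes went from 1374 higher and 1924 lower to 698 and 3008, and the median of all genes was -0.24. With DESeq2, which fitted 40 genes of the list, 12 were higher and 7 lower (1420 and 1869 of all 14935 genes). With no filter on low counts, 13 of 40 were higher and 7 lower (1404 and 2020 of all 14935 genes). In the direct comparison of 24 with 12 hours, 13 of 37 tested genes were called, 5 higher (Gbp3, Gbp2, Bst2, Xaf1 and Oasl2) and 8 lower (Trim21, Parp14, Irf1, Trim25, Ifnar1, Gbp7, Adar and Ifngr1). Here 25.7% of all 11394 tested genes were called, 10.4% higher and 15.3% lower. Under total-count scaling the split was 2 higher and 13 lower, that of all genes went from 1184 higher and 1740 lower to 484 and 2830, and the median of all genes was -0.22. Without the third library of 24 hours the split was 3 higher and 9 lower, and without the first library of 24 hours 6 higher and 6 lower. The comparisons of 12 and of 24 hours with time 0 share the time 0 libraries, so their values are given side by side and are not independent.

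**Figure D3:**
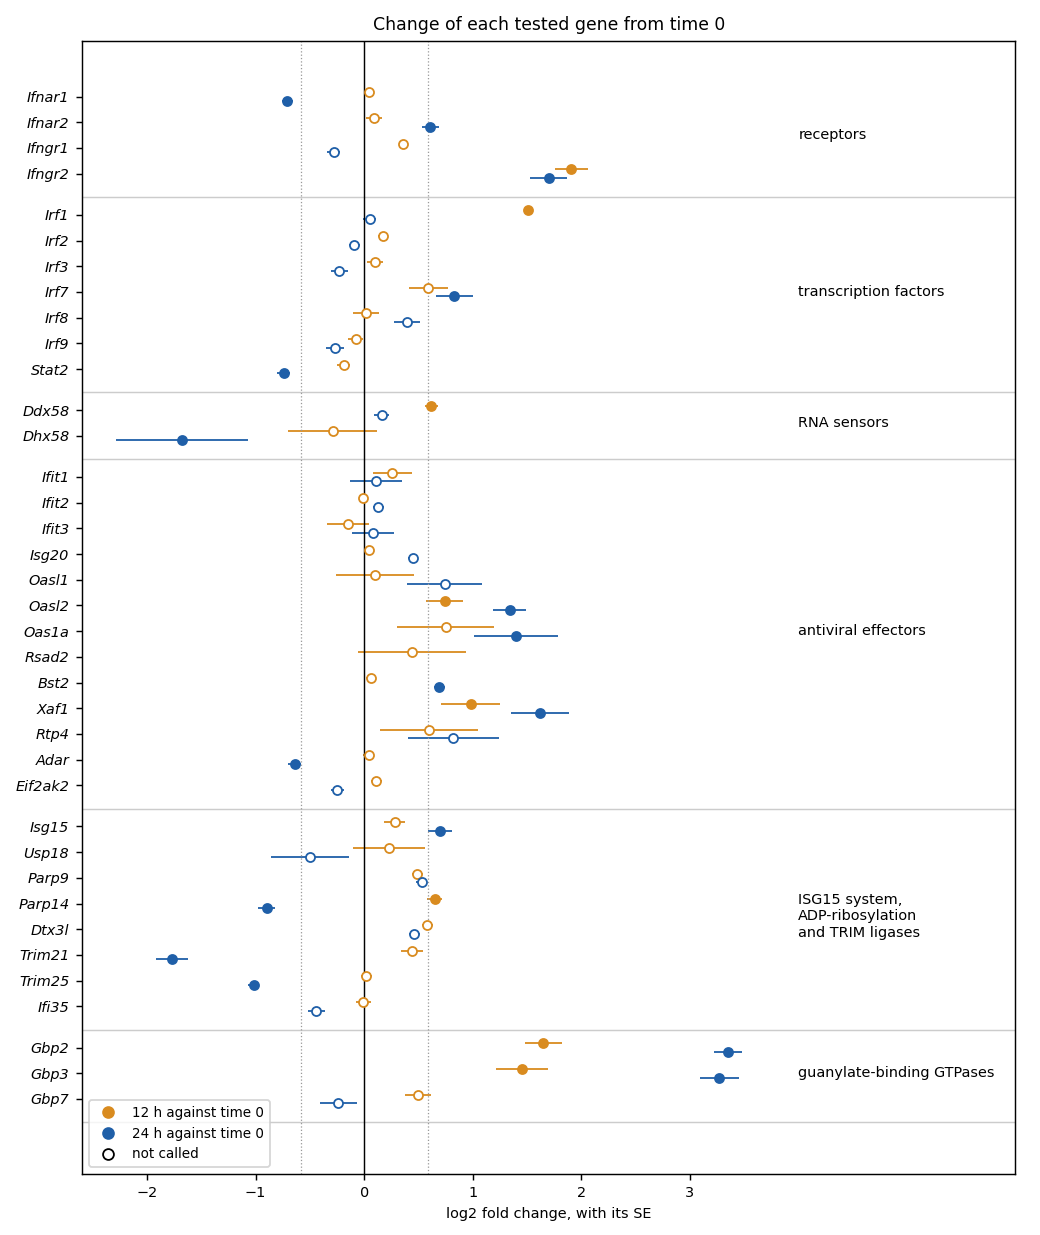
Log2 fold change with its SE of each tested gene at 12 hours (orange) and 24 hours (blue) against time 0, grouped by role, with filled points for called genes and dotted lines at 1.5-fold. The 8 filled orange points all lie to the right of 0, whereas the 17 filled blue points lie on both sides, from Gbp2 at 3.35 to Trim21 at -1.77.

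Among the receptors, the signaling chain of the interferon-gamma receptor rose at both times and the type I receptor chains went apart at 24 hours. Ifngr2 stood at 1.47, 1.76 and 1.45 CPM in the libraries of time 0, at 5.38, 6.80 and 5.30 CPM at 12 hours and at 4.40, 4.56 and 6.12 CPM at 24 hours. All libraries of both later times were above all of time 0. The log2 fold change was 1.91 ± 0.15 (SE) at 12 hours (3.75-fold, adjusted p = 7.7e-08) and 1.70 ± 0.17 at 24 hours (3.24-fold, adjusted p = 1.0e-06). Between 12 and 24 hours the libraries overlapped (log2 fold change -0.19 ± 0.14, adjusted p = 0.25).

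Ifngr1, the ligand-binding chain, stood at 40.7, 40.3 and 38.3 CPM at time 0, 50.2, 52.2 and 50.7 CPM at 12 hours and 30.2, 35.7 and 31.6 CPM at 24 hours. It was above time 0 in every library of 12 hours and below it in every library of 24 hours, but by less than 1.5-fold in both comparisons (1.29-fold and 0.822-fold). From 12 to 24 hours it fell by 0.63 ± 0.06 on the log2 scale (adjusted p = 5.4e-07), and without the first library of 24 hours the difference was -0.58, short of 1.5-fold. Per kilobase, Ifngr1 was at 18.8 CPM and Ifngr2 at 0.421 CPM at time 0, and at 24.2 and 1.57 CPM at 12 hours.

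Ifnar1 stood at 66.6, 68.8 and 67.4 CPM at time 0, 69.0, 68.1 and 71.3 CPM at 12 hours and 39.1, 41.9 and 42.5 CPM at 24 hours. The libraries of time 0 and 12 hours overlapped, and those of 24 hours were below both. Ifnar1 fell by 0.71 ± 0.05 on the log2 scale at 24 hours (0.611-fold, adjusted p = 2.3e-08). Its partner Ifnar2 stood at 13.2, 12.9 and 13.8 CPM at time 0, 13.6, 14.4 and 14.3 CPM at 12 hours and 18.4, 20.9 and 21.2 CPM at 24 hours, with all libraries of 24 hours above the others. It rose by 0.61 ± 0.08 on the log2 scale at 24 hours (1.52-fold, adjusted p = 9.0e-06). Both calls lay close to the fold threshold: Ifnar2 was at 0.58 or 0.57 without the second or the third library of 24 hours and at 0.39 with total counts, and Ifnar1 at -0.53 when transcript length and GC content were corrected for. From 12 to 24 hours Ifnar1 fell by 0.73 ± 0.05 (-0.55 with that correction), and Ifnar2 was at 0.54 ± 0.07, under the fold threshold, but at 0.60 without the first library of 24 hours.

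Of the transcription factors, Irf1 rose at 12 hours and fell again by 24 hours. Irf1, which interferon-gamma and inflammatory cytokines induce, stood at 51.3, 52.7 and 51.1 CPM at time 0, at 145, 150 and 146 CPM at 12 hours and at 47.5, 55.8 and 56.7 CPM at 24 hours. The libraries of 12 hours lay far above the rest, and those of 24 hours overlapped with time 0. The log2 fold change was 1.51 ± 0.03 at 12 hours (2.86-fold, adjusted p = 8.1e-15) and 0.05 ± 0.06 at 24 hours (adjusted p = 0.47), and from 12 to 24 hours Irf1 fell by 1.44 ± 0.06 (adjusted p = 1.6e-10). Its antagonist Irf2, which binds the same sites, was at 0.17 ± 0.04 at 12 hours and -0.09 ± 0.05 at 24 hours on the log2 scale, and was not called.

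The factors of type I interferon signaling were not called at 12 hours. Stat2 stood at 23.6, 25.4 and 24.5 CPM at time 0, 20.3, 21.2 and 22.8 CPM at 12 hours and 15.1, 14.5 and 14.3 CPM at 24 hours, so that the 3 times did not overlap. At 12 hours Stat2 was at -0.19 ± 0.06 on the log2 scale (adjusted p = 0.047), under the fold threshold. It fell by 0.74 ± 0.06 at 24 hours on the log2 scale (0.599-fold, adjusted p = 2.4e-07), which became -0.46 with the length and GC correction. Irf9, its DNA-binding partner, stood at 10.9, 11.6 and 11.3 CPM at time 0, 10.9, 10.5 and 10.4 CPM at 12 hours and 9.19, 9.44 and 9.37 CPM at 24 hours. The libraries of 24 hours lay below those of time 0, but at 0.832-fold (adjusted p = 0.010) the difference did not reach the fold threshold.

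Irf3 and Irf7 switch on the type I interferon genes once cytosolic nucleic acid is sensed. Irf3 stood at 34.1, 43.2 and 40.3 CPM at time 0, 44.3, 41.7 and 40.1 CPM at 12 hours and 35.6, 32.5 and 31.5 CPM at 24 hours, and was not called (0.850-fold at 24 hours, with overlap). Irf7 was much less abundant than Irf3 at time 0 (0.661 against 19.3 CPM per kb) and went from 1.31, 1.46 and 1.67 CPM at time 0 to 1.77, 2.41 and 2.49 CPM at 12 hours and 2.61, 2.61 and 2.68 CPM at 24 hours. The 3 times did not overlap. Irf7 rose by 0.83 ± 0.17 at 24 hours (1.78-fold, adjusted p = 0.00065), while at 12 hours it was at 0.59 ± 0.18 with an adjusted p of 0.055, which became 0.027 without the first library of 12 hours and 0.022 with no filter on low counts. Irf8, a factor best known from myeloid cells, was at 0.39 ± 0.12 at 24 hours and not called, and Irf5 had 1 to 16 counts per library, the 16 in a single library of 24 hours.

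The RNA sensor Ddx58 (RIG-I), which detects viral RNA ends, rose at 12 hours and was not called at 24 hours. It stood at 18.2, 17.8 and 17.1 CPM at time 0, 27.5, 28.1 and 25.6 CPM at 12 hours and 19.1, 18.7 and 21.1 CPM at 24 hours, and the 12-hour libraries lay above all others. The log2 fold change was 0.62 ± 0.06 at 12 hours (1.53-fold, adjusted p = 7.7e-07) and 0.16 ± 0.07 at 24 hours (adjusted p = 0.063). The 12-hour call lay close to the fold threshold and was lost, at 0.58, in the fit with both the replicate block and the length and GC correction. Its relative Dhx58 (LGP2), which lacks the signaling domains of RIG-I, was near the detection floor with 12, 16 and 33 counts at time 0, 17, 10 and 18 counts at 12 hours and 1, 4 and 12 counts at 24 hours. In CPM these were 0.249, 0.343 and 0.606 at time 0, 0.372, 0.215 and 0.412 at 12 hours and 0.0244, 0.0828 and 0.253 at 24 hours, and the groups overlapped. The call of Dhx58 as lower at 24 hours (-1.68 ± 0.61, adjusted p = 0.026) was lost without the third library of time 0 (adjusted p = 0.15) and without the first or the second library of 24 hours (adjusted p = 0.071 and 0.077). Between 24 and 12 hours Dhx58 was at -1.38 ± 0.61 (adjusted p = 0.059) and was called with the replicate block (-1.45, adjusted p = 0.044), with total counts (-1.60, adjusted p = 0.031), with limma-voom (-1.71, adjusted p = 0.024) and without the third library of 24 hours (-2.49, adjusted p = 0.0098).

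Of the 13 antiviral effectors in the table, 2 of 13 tested rose at 12 hours (1.5% of all genes were called higher), and 4 rose and 1 fell of 12 tested at 24 hours (12.0% and 16.8% of all genes). Oasl2, a relative of the oligoadenylate synthetases, went from 1.70, 2.21 and 1.96 CPM at time 0 to 2.56, 3.29 and 3.93 CPM at 12 hours and 4.57, 4.93 and 5.34 CPM at 24 hours, with no overlap between the times. The log2 fold change was 0.74 ± 0.17 at 12 hours (adjusted p = 0.0088) and 1.34 ± 0.15 at 24 hours (2.54-fold, adjusted p = 2.1e-06). Without the third library of 12 hours the first value was 0.58 (adjusted p = 0.074). The difference between 24 and 12 hours, 0.63 ± 0.15, fell under 1.5-fold without the first library of 12 hours (0.48), without the third of 24 hours (0.57) and with total counts (0.40).

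Xaf1, which binds and antagonizes the apoptosis inhibitor XIAP, stood at 0.436, 0.558 and 0.459 CPM at time 0, 1.03, 1.05 and 0.777 CPM at 12 hours and 1.27, 1.33 and 1.86 CPM at 24 hours. The times did not overlap, although a library held only 21 to 88 counts of the gene. It rose by 0.98 ± 0.27 at 12 hours (1.98-fold, adjusted p = 0.023) and 1.62 ± 0.27 at 24 hours (3.08-fold, adjusted p = 0.00011). The 12-hour call was lost with DESeq2 (adjusted p = 0.067) and without the first or the third library of time 0 (adjusted p = 0.052 and 0.089) or the first or second library of 12 hours (adjusted p = 0.095 and 0.12). From 12 to 24 hours the difference was 0.66 ± 0.24 (adjusted p = 0.025), which was lost without the third library of 12 hours (adjusted p = 0.11) or the third of 24 hours (adjusted p = 0.12), with DESeq2 (adjusted p = 0.051) and with total counts (adjusted p = 0.12).

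Oas1a, an oligoadenylate synthetase that activates RNase L, went from 0.228, 0.214 and 0.129 CPM at time 0 to 0.197, 0.430 and 0.320 CPM at 12 hours and 0.513, 0.456 and 0.528 CPM at 24 hours. The libraries of 24 hours were above the others, and those of 12 hours overlapped with time 0. At 24 hours it rose by 1.40 ± 0.39 (2.63-fold, adjusted p = 0.0063). Because 40.9% of the 100-base windows of its transcript occur in another gene as well, mainly Oas1g, reads cannot be assigned to Oas1a with certainty. Bst2 rose by 0.69 ± 0.05 at 24 hours (1.61-fold, adjusted p = 2.6e-08), from a range of 52.4 to 53.6 CPM at time 0 to one of 82.7 to 90.5 CPM, and was at 0.47 with total counts and 0.46 with the length and GC correction. From 12 to 24 hours it rose by 0.66 ± 0.04, which the same settings brought to 0.43 and 0.41. Adar, which edits adenosine in double-stranded RNA, fell by 0.64 ± 0.06 at 24 hours (adjusted p = 5.4e-07), but was at -0.20 with the length and GC correction, and the difference between 24 and 12 hours (-0.66 ± 0.06) went to -0.21. For Adar, 16.8% of the exon bases overlap Chrnb2 on the opposite strand.

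The other antiviral effectors, several of them classic targets of type I interferon, were not called in any of the 3 comparisons with all libraries. The RNA-binding proteins Ifit1, Ifit2 and Ifit3 were at 1.20-, 0.993- and 0.903-fold at 12 hours and 1.08-, 1.10- and 1.05-fold at 24 hours. Their libraries overlapped between time 0 and 12 hours, and Ifit2, at 49.5 to 53.1 CPM at time 0, stood well above Ifit1 and Ifit3 per kilobase (13.6 against 0.627 and 1.15 CPM per kb). For Ifit3, 31.7% of the transcript windows occur in another gene, chiefly Ifit3b. Rsad2 had between 4 and 14 counts in the libraries of time 0, between 8 and 13 at 12 hours, and 8, 6 and 32 at 24 hours. Oasl1 and Rtp4 were at 1.67- and 1.77-fold at 24 hours with adjusted p of 0.076 and 0.095, and Oasl1 was called higher without the third library of time 0 (1.10 on the log2 scale, adjusted p = 0.033). Isg20 was at 1.36-fold (adjusted p = 3.2e-06) and the translation-blocking kinase gene Eif2ak2 (PKR) at 0.843-fold.

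Among the genes of the ISG15 system, of ADP-ribosylation and of the TRIM ubiquitin ligases, Parp14 rose at 12 hours and fell at 24 hours. Parp14, a mono-ADP-ribosyltransferase, stood at 33.0, 28.8 and 31.1 CPM at time 0, 45.3, 54.0 and 45.5 CPM at 12 hours and 14.9, 18.2 and 16.5 CPM at 24 hours, without overlap. The log2 fold change was 0.65 ± 0.07 at 12 hours (1.56-fold, adjusted p = 2.3e-06; 0.56 without the second library of 12 hours) and -0.90 ± 0.08 at 24 hours (0.537-fold, adjusted p = 2.7e-07). From 12 to 24 hours it fell by 1.52 ± 0.08 (adjusted p = 2.5e-09).

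Parp9 and Dtx3l, whose proteins form an ADP-ribosylating ubiquitin ligase complex, lie beside Parp14 on chromosome 16. In GRCm38 Parp14 spans 35832874 to 35871544, Dtx3l 35926511 to 35939151 and Parp9 35938470 to 35972605. Parp9 went from 42.4 to 43.7 CPM at time 0 to 56.1 to 66.0 CPM at 12 hours and 57.8 to 63.7 CPM at 24 hours, and Dtx3l from 34.9 to 35.3 CPM to 48.4 to 57.2 CPM and 44.6 to 50.1 CPM. Every library of both later times was above time 0, but the fold changes were under the threshold of 1.5, at log2 values of 0.49 and 0.53 for Parp9 and of 0.58 and 0.46 for Dtx3l, with adjusted p from 5.4e-07 to 5.5e-06. Dtx3l at 12 hours lay at the threshold: it passed it in 4 of the 6 fits that left out a library, without the first or the third library of time 0 (0.59 each) and without the first or the third of 12 hours (0.64 and 0.59). Parp9 at 24 hours passed it with the length and GC correction (0.59). Parp9 and Dtx3l share 458 exon bases on opposite strands, 9.4% and 8.0% of their exons, so part of their reads could not be told apart if strand was not used in counting. At 24 hours Parp14 was therefore below time 0 in every library while both neighbors were above it.

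**Figure D4:**
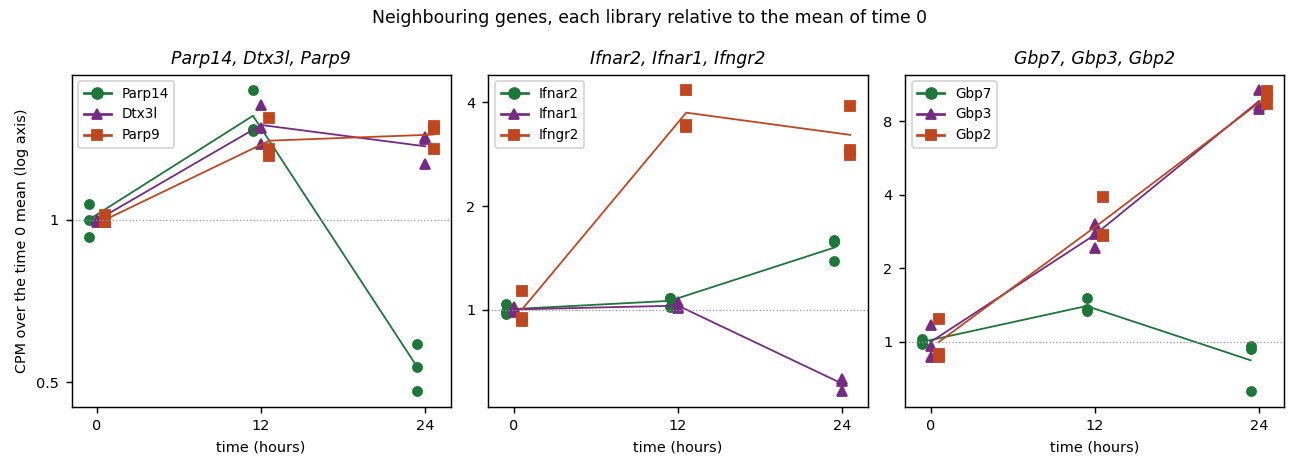
Level of each library relative to the mean of time 0 (log axis) against time in hours, for 3 groups of neighboring genes, with lines through the means of 3 libraries. Parp14 parts from Dtx3l and Parp9 at 24 hours, Ifnar1 and Ifnar2 go in opposite directions while Ifngr2 is up at both times, and Gbp2 and Gbp3 climb to 24 hours while Gbp7 is up at 12 hours and below time 0 in every library of 24 hours.

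Trim21, a ubiquitin ligase and cytosolic antibody receptor, had the largest fall among the tested genes of the list at 24 hours. It stood at 6.02, 6.2 and 5.38 CPM at time 0, 8.22, 8.39 and 7.18 CPM at 12 hours and 2.13, 1.53 and 1.52 CPM at 24 hours. Every library of 12 hours was above time 0, by 1.36-fold (adjusted p = 0.0072) and so under the fold threshold, and every library of 24 hours was below both. The log2 fold change at 24 hours was -1.77 ± 0.15 (0.294-fold, adjusted p = 2.7e-07) and from 12 to 24 hours -2.19 ± 0.14 (adjusted p = 1.7e-08). Trim25, a ubiquitin ligase known from RIG-I signaling, stood at 68.5, 63.4 and 63.8 CPM at time 0, 59.8, 67.3 and 70.1 CPM at 12 hours and 33.1, 31.7 and 31.4 CPM at 24 hours. Its libraries overlapped between time 0 and 12 hours, and at 24 hours it fell by 1.02 ± 0.05 (0.493-fold, adjusted p = 1.5e-09).

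Isg15, the ubiquitin-like modifier, rose by 0.70 ± 0.11 at 24 hours (1.62-fold, adjusted p = 6.6e-05), from a range of 7.25 to 9.25 CPM at time 0 to one of 12.4 to 15.2 CPM. It was at 0.47 with total counts and at 0.43 with the length and GC correction, both short of 1.5-fold. Usp18, which removes ISG15 from proteins and blocks type I receptor signaling, had 15 to 35 counts per library and was not called (1.17-fold at 12 hours and 0.706-fold at 24 hours). Between 24 and 12 hours Usp18 was at -0.71 ± 0.36 (0.612-fold, adjusted p = 0.091) and was called lower with total counts (-0.93, adjusted p = 0.031) and without the third library of 12 hours (-0.94, adjusted p = 0.041). Ifi35, which acts with the related protein NMI, was at 0.738-fold at 24 hours (adjusted p = 0.00015) and was not called, but passed the fold threshold with total counts (-0.66) and with the length and GC correction (-0.59).

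The guanylate-binding proteins, GTPases that attack the membranes of intracellular pathogens, held the largest rises of the tested genes at 24 hours. Gbp2 went from 2.33, 1.67 and 1.62 CPM at time 0 to 5.12, 7.38 and 5.08 CPM at 12 hours and 17.7, 19.2 and 20.1 CPM at 24 hours. Gbp3 went from 0.498, 0.450 and 0.606 CPM to 1.44, 1.57 and 1.26 CPM and then 4.67, 5.61 and 4.79 CPM. For both genes the 3 times were separate, with every library above all of the time before. Gbp2 rose by 1.65 ± 0.17 at 12 hours (3.15-fold, adjusted p = 4.0e-06) and 3.35 ± 0.13 at 24 hours (10.2-fold, adjusted p = 1.7e-10). Gbp3 rose by 1.45 ± 0.24 at 12 hours (2.73-fold, adjusted p = 0.00041) and 3.27 ± 0.18 at 24 hours (9.63-fold, adjusted p = 4.0e-09). Between 12 and 24 hours the differences were 1.72 ± 0.12 for Gbp2 (adjusted p = 3.2e-08) and 1.84 ± 0.15 for Gbp3 (adjusted p = 1.4e-07).

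The neighbors of Gbp2 and Gbp3 behaved differently or did not pass the filter on low counts. On chromosome 3 of GRCm38 the order is Gbp7 (142530342 to 142550149), Gbp3 (142560026 to 142573209), Gbp2b (142594847 to 142619179) and Gbp2 (142620602 to 142638008). Gbp7 stood at 3.09 to 3.25 CPM at time 0, 4.24 to 4.78 CPM at 12 hours and 1.98 to 3.04 CPM at 24 hours, and was called only from 12 to 24 hours (-0.71 ± 0.16, adjusted p = 0.0013), a difference of -0.55 without the first library of 24 hours. Gbp2b had no count at time 0, 0, 2 and 0 counts at 12 hours and 6, 5 and 10 counts at 24 hours, which is at least 7.66-fold higher at 24 hours against a floor of 3 counts over the group. Gbp4, on chromosome 5, had 1, 0 and 0 counts at time 0, 9, 3 and 2 at 12 hours and 4, 11 and 9 at 24 hours.

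**Figure D5:**
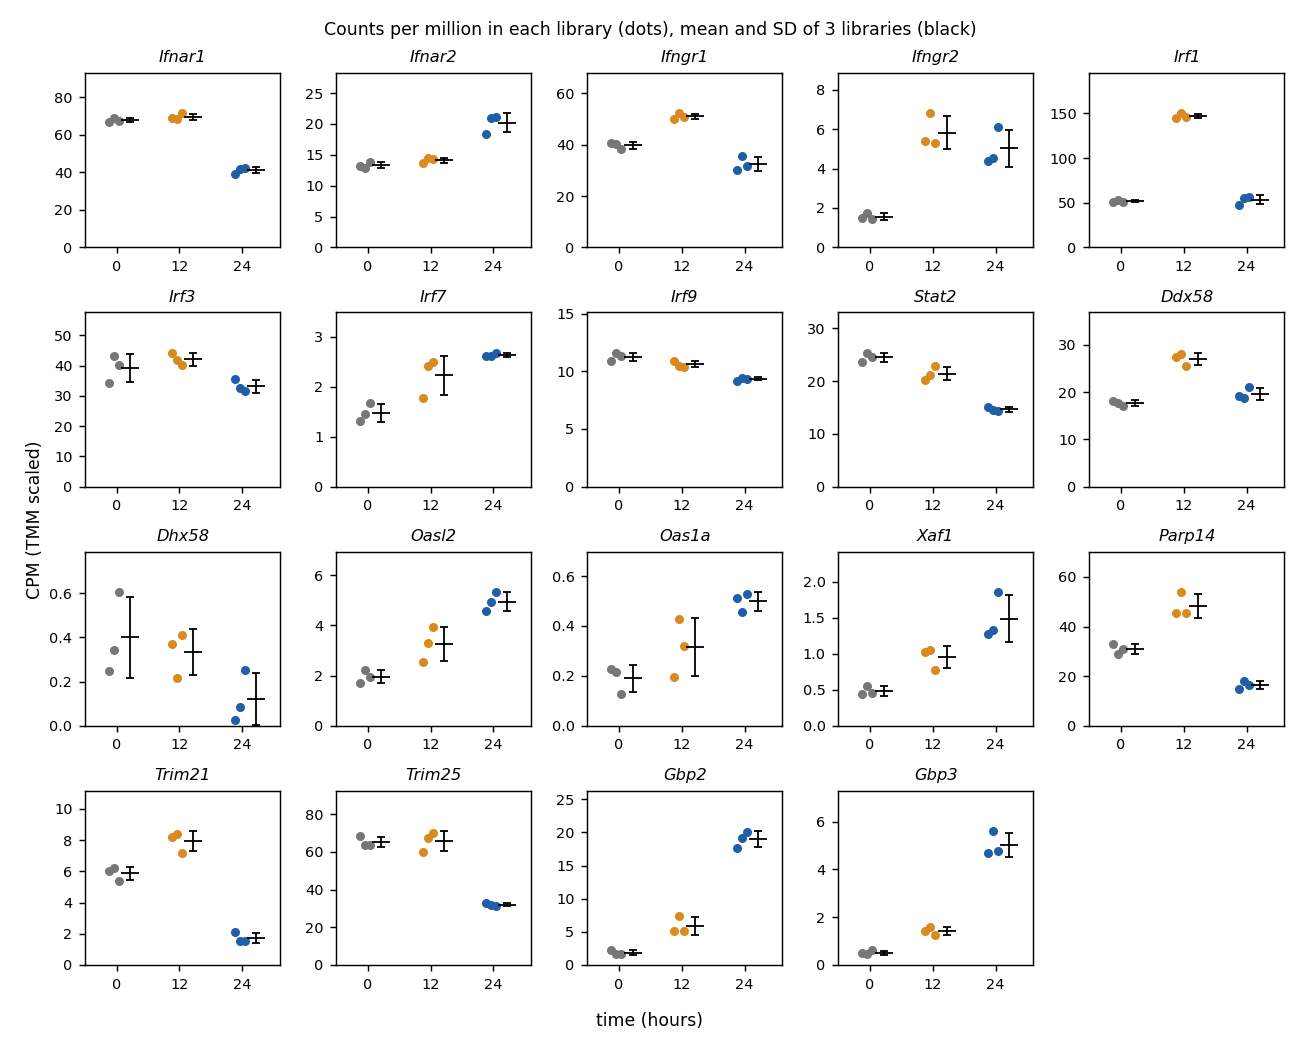
CPM (TMM scaled) in each library (dots) at 0, 12 and 24 hours, with the mean and SD of 3 libraries in black, for 19 genes. Irf1 and Ddx58 peak at 12 hours, Gbp2 and Gbp3 climb to 24 hours, and Ifnar1, Stat2, Trim21 and Trim25 are lowest at 24 hours.

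Set beside these calls, the motif cores were spread over called and uncalled genes, and no test was run on them. Of the 7 genes called higher at 12 hours with a RefSeq promoter, 3 held an ISRE core (Ddx58, Gbp2 and Gbp3), 1 a GAS core (Irf1) and 4 an NF-kB core (Irf1, Ifngr2, Gbp2 and Xaf1). Of the 25 tested but not called, 11 held an ISRE core, 12 a GAS core and 8 an NF-kB core. At 24 hours the ISRE core was in 5 of 10 genes called higher, 2 of 5 called lower (Stat2 and Trim21) and 6 of 16 not called. The GAS core was in 3 of 10 called higher, 2 of 5 called lower and 8 of 16 not called, and the NF-kB core in 5 of 10 called higher, 0 of 5 called lower and 7 of 16 not called.

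The rest of the pathway was read from 2 further lists, also chosen with earlier results of these data known, so their shares are descriptive too. The first list held interferon ligands, kinases, adaptors and regulators, but no ligand passed the filter on low counts. Of its 23 tested genes, 1 was higher at 12 hours, Ikbke, a kinase that activates Irf3 (0.68 ± 0.08, adjusted p = 2.1e-05). In the same list 0 were lower (1 by edgeR at an unadjusted p under 0.05). At 24 hours 3 were higher (Tmem173, Ptpn2 and Cgas) and 5 lower (Irf4, Irf2bpl, Socs1, Irf2bp1 and Irf2bp2), with a median log2 fold change of -0.03. Of all genes 12.0% were higher and 16.8% lower at 24 hours, and the counts of this list lie near these shares. Of 63 tested other interferon-stimulated genes, 9 were higher and 0 lower at 12 hours (1 lower by edgeR at an unadjusted p under 0.05), with a median of 0.21, where 1.5% of all genes were higher and 0.0964% lower. These were the chemokine gene Cxcl10 (2.33 ± 0.30), the inflammatory caspase Casp4 (3.15 ± 0.54), Gbp5 (2.87 ± 0.65), the phospholipid scramblase Plscr1 (1.31 ± 0.05), the DNA-binding factor Ifi204 (0.90 ± 0.23), the peptide transporter Tap1 (0.79 ± 0.11) and the immunoproteasome subunits Psmb8 (0.76 ± 0.12), Psmb9 (0.78 ± 0.23) and Psmb10 (0.63 ± 0.05), with adjusted p from 2.4e-11 to 0.035. At 24 hours 16 of 61 tested genes of this list were higher and 8 lower, with a median of 0.17, beside the 12.0% and 16.8% of all genes. Between 12 and 24 hours 3 genes of the first list were higher (Tmem173 at 0.73 ± 0.06, Ptpn2 at 0.65 ± 0.04 and Cgas at 0.82 ± 0.10) and 7 lower of 23 tested, and of the second list 8 were higher and 10 lower of 65 tested, beside 10.4% higher and 15.3% lower among all genes.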

How the data were processed

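RNA-Seq gene counts of 9 MyC-CaP libraries were used. The authors trimmed reads with Cutadapt, aligned them with STAR to GRCm38 (GENCODE M24) and assigned them to genes with featureCounts. The deposited table holds raw, unnormalized counts. The strand setting and the treatment of multi-mapping reads are not given in the sources used here. The genes and lists were chosen with earlier results of these data known. Each comparison was fitted on its 6 libraries with edgeR 4.0.16 (filterByExpr, TMM factors, quasi-likelihood test without a block) in R 4.3.3, with Benjamini-Hochberg adjustment over the tested genes. The call needed an adjusted p of at most 0.05 and at least 1.5-fold. CPM values are TMM scaled over the 9 libraries. SEs were taken from the log2 fold change and the F statistic.

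Values per library are given for genes called at 12 hours, for the genes called at 24 hours with the 6 highest and the 6 lowest fold changes, and for the receptors, Irf1, Irf3, Irf7, Irf9 and Stat2. Other genes of the pathway were named where called at 12 hours or where at most 5 were called in a direction. Shared sequence was read from GENCODE M21 transcripts in windows of 100 bases, and promoters from RefSeq (GRCm38.p6). Alternatives were DESeq2 1.42.0, limma-voom (limma 3.58.1), RLE and upper-quartile factors, total counts, 2 other filters, one fit of all 9 libraries, a replicate block, glmTreat, the adjusted p alone, a loess correction for length and GC content and leaving out each library. The calculations were tested on simulated data.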

Additional observations from a re-analysis of the deposited data

How the results depend on the processing

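With edgeR's glmTreat, which tests against 1.5-fold, 4 of the interferon response genes were called at 12 hours, 11 at 24 hours and 7 between 24 and 12 hours (88, 2101 and 1768 of all genes), and by the adjusted p alone 15, 27 and 24 (1178, 8119 and 8124 of all genes). Under the other settings the counts stayed within 1.5 times those reported, with 6 to 9, 15 to 17 and 12 to 13 genes when a library was left out. Irf1 at 24 hours, which was not called, went to -0.17 on the log2 scale with total counts (adjusted p = 0.027, edgeR), where the median of all genes was -0.24. With total counts Ddx58 (-0.66), Stat2 (-0.75) and Ifi35 (-0.63) were also called lower between 24 and 12 hours. Libraries with the same replicate number did not deviate together (mean correlations -0.02, -0.06 and 0.03). The labels do not say whether such libraries were paired, and with 3 libraries per time these correlations cannot decide it. With the replicate block 8, 17 and 14 genes were called: Dhx58 was gained as lower between 24 and 12 hours (-1.45, adjusted p = 0.044, edgeR) and no other gene of the list changed its call. With both the replicate block and the length and GC correction, calls were lost for Ddx58 at 12 hours (0.58), for Stat2, Ifnar1, Isg15, Bst2 and Adar at 24 hours and for Ifnar1, Bst2 and Adar between 24 and 12 hours, and gained for Parp9 and Ifi35 at 24 hours and Ifnar2 between 24 and 12 hours. The low counts of Xaf1, Oas1a, Dhx58, Rsad2 and Gbp2b limit what can be said of them.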
